A study of Mus musculus with 7 samples.

Results

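The genes described here encode the proteins that move sodium, protons, chloride and bicarbonate across epithelial membranes. They were taken from the mm9 annotation as the protein-coding genes whose symbols begin with Slc4a, Slc9a, Slc12a, Slc26a, Atp1a or Atp1b and go on with a number, which gave 51 of 22367 protein-coding genes. Of these, 12 carry the Slc9a prefix, 11 Slc26a, 11 Slc4a, 9 Slc12a, 4 Atp1a and 4 Atp1b. The symbols of 3 members continue after the number and name partner proteins, namely the scaffolds Slc9a3r1 and Slc9a3r2 and the anion exchanger adaptor Slc4a1ap. Occupancy by the vitamin D receptor (VDR) was measured by chromatin immunoprecipitation and sequencing (ChIP-seq). The material was epithelium released with EDTA from the duodenum and jejunum of wild-type mice on a chow diet, aged 8 weeks. Mice had received vehicle (3 libraries) or 10 ng of 1,25(OH)2D3, the active hormone made from vitamin D, per g of body weight (3 libraries), with tissue taken after 1 h. Nothing in the labels states that the libraries are from different mice, and p values then measure only the spread among libraries, which may be technical. Peak lists hold no expression values, so the epithelial identity was not checked against marker genes, and a change in cell makeup cannot be told apart from a change in occupancy per cell.

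In the enterocyte, the sodium pump at the basolateral membrane keeps intracellular sodium low, and the resulting gradient drives entry of sodium through exchangers at the brush border. Apical sodium-proton exchangers of the Slc9a family work side by side with chloride-bicarbonate exchangers of the Slc26a family, so that sodium chloride is absorbed while protons and bicarbonate are released to the lumen. Slc4a transporters move bicarbonate mainly at the basolateral side, and Slc12a cotransporters carry chloride together with sodium or potassium. VDR binds DNA as a heterodimer with the retinoid X receptor, preferentially at a direct repeat of a hexamer with a 3 bp spacer, the DR3 element.

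Of the 222 regions near members in at least 2 hormone libraries, 9 (4.05%) held a perfect match to the DR3 element. The sequences below were chosen mainly for their match to this element and do not represent all VDR-occupied regions near these genes. They comprise each region in all 3 hormone libraries near a member with a perfect match to the DR3 element, except those near Slc12a2 and Slc26a2, which are not printed. They are followed by 4 of the regions with 1 mismatch, chosen after their values were seen, and by the promoter region of Atp1b1, with 2 mismatches. Each line gives 121 bases of mm9 centred on the element, read 5′ to 3′ on the strand of the element, with the 15 bases of the element in capitals. The pattern searched allows more than 1 base at some positions, so perfect matches differ in their letters. Of the first 5, those of Slc9a4 and Slc9a10 were in all 3 hormone libraries and in no vehicle library, that of Slc4a4 was in all 6 libraries, and those of Slc9a2 and Slc12a1 were in the hormone libraries and vehicle replicate 3.
Slc9a2, intron, chr1:40741955-40742075, plus strand: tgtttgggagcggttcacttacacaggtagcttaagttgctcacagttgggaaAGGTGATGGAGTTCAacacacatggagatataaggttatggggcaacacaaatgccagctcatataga
Slc9a4, intron, chr1:40643118-40643238, minus strand: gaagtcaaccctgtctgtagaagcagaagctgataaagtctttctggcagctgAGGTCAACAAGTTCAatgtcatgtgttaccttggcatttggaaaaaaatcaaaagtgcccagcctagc
Slc9a10, intragenic start, chr16:45539331-45539451, plus strand: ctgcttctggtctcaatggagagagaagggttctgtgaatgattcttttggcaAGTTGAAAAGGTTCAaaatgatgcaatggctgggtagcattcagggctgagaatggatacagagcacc
Slc4a4, intron, chr5:89337938-89338058, minus strand: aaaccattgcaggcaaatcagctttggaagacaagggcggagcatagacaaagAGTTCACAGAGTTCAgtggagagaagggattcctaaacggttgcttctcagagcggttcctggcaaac
Slc12a1, downstream, in Dut, chr2:125078294-125078414, plus strand: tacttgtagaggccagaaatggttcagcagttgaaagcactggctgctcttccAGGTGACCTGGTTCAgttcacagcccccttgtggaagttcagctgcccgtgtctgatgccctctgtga
Slc9a2, far intron, chr1:40821817-40821937, minus strand: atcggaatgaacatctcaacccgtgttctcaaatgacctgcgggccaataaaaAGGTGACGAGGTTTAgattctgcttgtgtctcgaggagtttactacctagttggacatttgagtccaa
Slc9a3, upstream, chr13:74209237-74209357, minus strand: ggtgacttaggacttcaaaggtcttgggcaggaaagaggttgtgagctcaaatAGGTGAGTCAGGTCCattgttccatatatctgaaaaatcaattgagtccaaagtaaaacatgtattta
Slc9a3r1, downstream, chr11:115043294-115043414, minus strand: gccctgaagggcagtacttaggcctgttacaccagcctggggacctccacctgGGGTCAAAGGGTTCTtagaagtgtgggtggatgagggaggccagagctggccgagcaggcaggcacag
Slc12a8, intron, chr16:33561755-33561875, plus strand: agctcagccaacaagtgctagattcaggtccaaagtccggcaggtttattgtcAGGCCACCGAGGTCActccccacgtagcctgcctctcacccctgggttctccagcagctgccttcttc
Atp1b1, promoter, chr1:166388854-166388974, plus strand: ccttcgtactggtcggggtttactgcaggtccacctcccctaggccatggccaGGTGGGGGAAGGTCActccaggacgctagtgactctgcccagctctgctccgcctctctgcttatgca

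The perfect matches near Slc12a2 and Slc26a2 each lay in a region that was in all 3 hormone libraries and in vehicle replicates 1 and 3.

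The libraries differed in depth and in the number of peaks called. Vehicle libraries held 15991198 to 68560701 tags and 8756 to 48425 peaks, and hormone libraries 17152461 to 66524392 tags and 25510 to 41722 peaks. Replicate 3 had the most tags in either group. Between 2.58% and 8.10% of tags lay in peaks with vehicle and between 11.86% and 18.96% with hormone. The part of this gap in the peak counts was not tested. Vehicle replicate 3 stood apart: 66.4% of the regions it contributed were private to it, against 30.5% for hormone replicate 3. The files give no tag counts per peak, so the comparison rests on how many peaks were called and not on their height. Because the members have longer gene bodies than other genes, with a median of 37.0 kb against 15.4 kb, their search windows were also wider.

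Near the 51 members, more VDR peaks were called in each hormone library than in vehicle replicates 1 and 2, while vehicle replicate 3 was within the hormone range. Counting peaks with centres within 50 kb of a gene body, 70, 121 and 245 peaks lay near members in vehicle replicates 1, 2 and 3, and 208, 243 and 301 in hormone replicates 1, 2 and 3. The groups overlapped, because vehicle replicate 3 exceeded hormone replicates 1 and 2. As a share of all peaks of a library, 0.800%, 0.813% and 0.506% lay near members with vehicle and 0.815%, 0.800% and 0.721% with hormone. The shares of 5 libraries lay close together, and vehicle replicate 3 was lowest (95% Wilson interval 0.447% to 0.573%, counting error only).

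The mean number of peaks was higher with hormone at 38 of 51 members (74.5%), lower at 6 and equal at 7. Among all protein-coding genes it was higher at 63.6% and lower at 20.4%. The median difference was 2 peaks per member and 0.67 over all genes. It was 1.17 without hormone replicate 3 and 3.17 without vehicle replicate 3. At 12 members (23.5%) every hormone library held more peaks than every vehicle library, compared with 16.0% of all genes, and at 0 members was every vehicle library above every hormone library, compared with 0.0447% of all genes. An exact two-sided permutation test of 3 against 3 libraries cannot give a p below 0.1, which each of the 12 members reached, and after Benjamini-Hochberg adjustment over all genes their exact permutation p was 0.62. No member therefore passed a threshold of 0.05. Libraries with the same replicate number deviated together for replicates 1 and 3 and only weakly for replicate 2, and no design states a pairing. With the replicate number taken as a block, 25 members were higher with hormone in all 3 pairs, against 33.2% of all genes. In all 3 pairs 0 were lower, against 0.156%. Without vehicle replicate 3, hormone libraries stood above the vehicle libraries at 34 members and at 42.3% of all genes, and without hormone replicate 1 at 19 members and 25.6%. With a 10 kb window this held at 7 members and 9.82% of all genes, and with each peak given only to the nearest gene start at 4 members and 7.74%. In a further setting each list was shortened to its first 8755 peaks, the number in the shortest list, which is called lists of equal length below. What orders the deposited lists is not stated, so it is not known which peaks this keeps. There 20 members were higher and 15 lower with hormone, against 24.4% and 26.8% of all genes, and the median difference was 0. Of the 38 members higher in the full lists, 19 were higher, 6 equal and 13 lower in this setting. None of the 12 members without overlap in the full lists was without overlap here, where 6 other members had every hormone library above every vehicle library, against 4.03% of all genes.

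**Figure D1:**
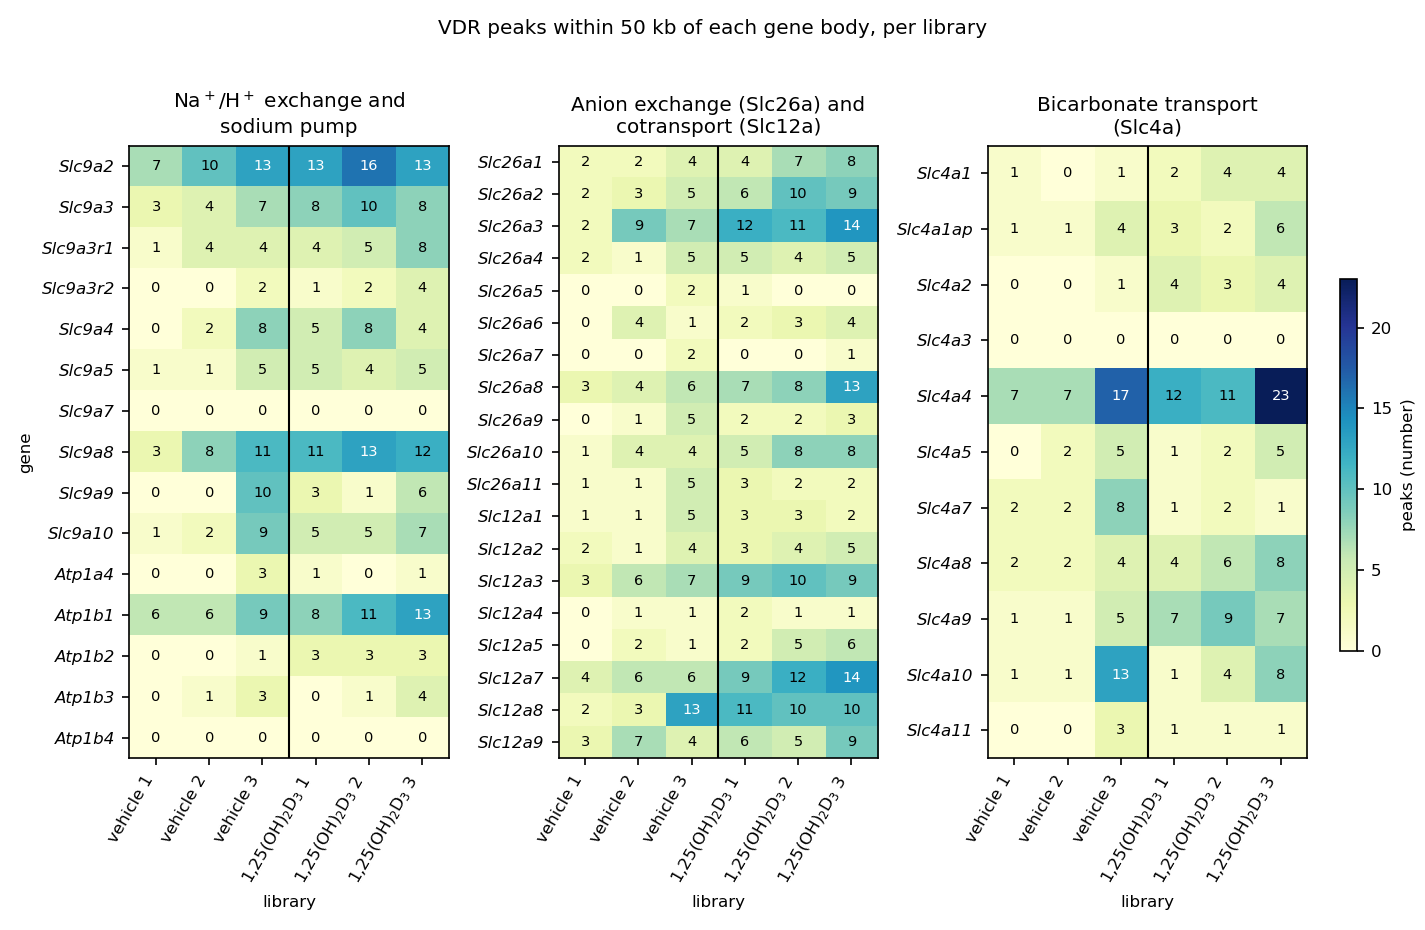
Number of VDR peaks within 50 kb of each gene body (color and printed number) for 45 of the 51 members (rows, by family) in the 3 vehicle and 3 hormone libraries (columns, split by the black line). At Slc9a3, Slc26a3 and Slc12a7, among others, every hormone library exceeds every vehicle library, and Slc9a7, Slc4a3 and Atp1b4 have 0 peaks in each library.

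**Figure D2:**
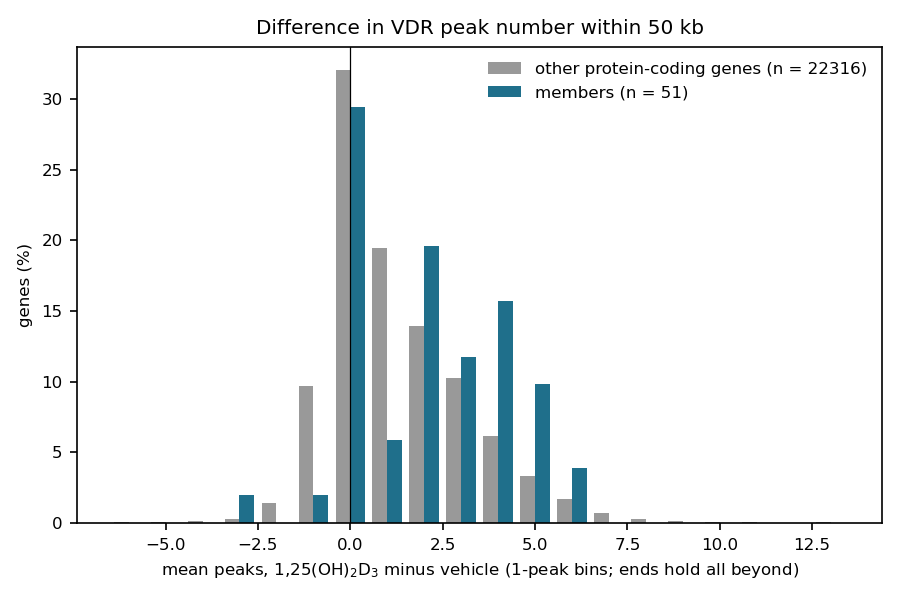
Share of genes (y axis, %) by the difference in mean peak number between hormone and vehicle (x axis, peaks), for the 51 members and the other protein-coding genes. The members have a smaller share at 1 peak and larger shares from 2 to 6 peaks, with a median of 2 peaks, compared with 0.67 over all genes.

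Among the sodium-proton exchangers, the 3 with the highest mean peak number with hormone were Slc9a2, Slc9a8 and Slc9a3, all known from the brush border. Slc9a3 (chromosome 13, 74258963 to 74303512, plus strand), the main apical exchanger of sodium absorption, had 3, 4 and 7 peaks with vehicle and 8, 10 and 8 with hormone. Every hormone library was above every vehicle library, by 4 peaks on average, but with lists of equal length the groups overlapped, at 3, 3 and 4 with vehicle and 4, 5 and 3 with hormone. Slc9a2 (chromosome 1, 40738557 to 40825730), another apical exchanger, had 7, 10 and 13 peaks with vehicle and 13, 16 and 13 with hormone. The groups met at 13, the value of vehicle replicate 3 and of 2 hormone libraries. Slc9a8 (chromosome 2, 167247212 to 167302500), found at the apical membrane and in the Golgi, had 3, 8 and 11 with vehicle and 11, 13 and 12 with hormone, so the groups touched at 11. Over the family, 10 of 12 were higher and 0 lower with hormone by mean, which became 7 higher and 1 lower with lists of equal length.

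The regions around Slc9a3 were mostly upstream and in introns. Peaks that overlap by at least 1 bp across libraries were joined into regions. All 6 libraries had a peak 19.1 kb upstream of the gene start (chromosome 13, 74239678 to 74240021) and another in an intron, 26.1 kb downstream of the start (74284878 to 74285277). An intronic region 18.0 kb downstream of the start (74276765 to 74277176) and one 49.7 kb upstream (74209052 to 74209384) were in all 3 hormone libraries and no vehicle library, a class called hormone-only from here on. The latter holds the element with 1 mismatch printed above and is nearer to the start of Cep72. A region centred 0.172 kb upstream of the Slc9a3 start (74258614 to 74258968) was in hormone replicates 2 and 3 only.

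Slc9a2 carried more regions in all 3 hormone libraries than any other member, 11, of which 4 were in all 6 libraries and 2 in no vehicle library. One of the latter was centred at -457 bp from its start (chromosome 1, 40737953 to 40738248), where the closest match to DR3 had 3 mismatches. The element with 0 mismatches printed above lay 3.51 kb downstream of the start in an intron, in a region that was in vehicle replicate 3 and every hormone library. At 83.3 kb a further intronic region (40821659 to 40822019), in all 6 libraries, held an element with 1 mismatch. The neighboring exchanger Slc9a4 (chromosome 1, 40637072 to 40687576), known best from the acid-secreting cells of the stomach, lies beside Slc9a2 and shares peaks with it. It had 0, 2 and 8 peaks with vehicle and 5, 8 and 4 with hormone. Its hormone-only region 6.03 kb downstream of the start (40642871 to 40643328) holds a perfect DR3 match.

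Slc9a8 had a region over its own start, centred at 65 bp (chromosome 2, 167247115 to 167247440), in the 3 hormone libraries and vehicle replicate 3, with 4 mismatches at the closest DR3. A region 5.40 kb upstream (167241612 to 167242011) was in all 6 libraries. With lists of equal length Slc9a8 still had 9, 9 and 8 peaks with hormone against 3, 5 and 7 with vehicle, and Slc9a2 had 9 in each hormone library against 7, 7 and 4. Neither gene had overlapping groups in that setting, whereas both had a vehicle library level with a hormone library in the full lists.

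The exchangers of other tissues and of organelles had fewer peaks, or peaks mainly in vehicle replicate 3. Slc9a5, expressed mainly in brain, had 1, 1 and 5 peaks with vehicle and 5, 4 and 5 with hormone. Slc9a10, a sperm exchanger, had 1, 2 and 9 with vehicle and 5, 5 and 7 with hormone, and its perfect DR3 match lay in a hormone-only region 3.97 kb downstream of its outermost start, within 1 kb of another annotated start. The endosomal exchanger Slc9a9, whose gene body spans 561 kb, had 0, 0 and 10 with vehicle and 3, 1 and 6 with hormone. Vehicle replicate 3 held the most peaks of any library at both Slc9a10 and Slc9a9. Slc9a7, of the trans-Golgi network, had 0 peaks in every library.

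The scaffolds that tether the apical exchanger to ezrin and the cytoskeleton were counted with this family. Slc9a3r1 (chromosome 11, 115024655 to 115042495) had 1, 4 and 4 peaks with vehicle and 4, 5 and 8 with hormone. Its region just past the gene end, 18.7 kb downstream of the start (115043209 to 115043567), was in all 6 libraries and stood at a mean list percentile of 99.6, the highest near any member. That percentile is a position in the deposited list, with 100 for the first peak, and the quantity that orders the list is not stated. Slc9a3r2 had 0, 0 and 2 peaks with vehicle and 1, 2 and 4 with hormone.

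**Figure D3:**
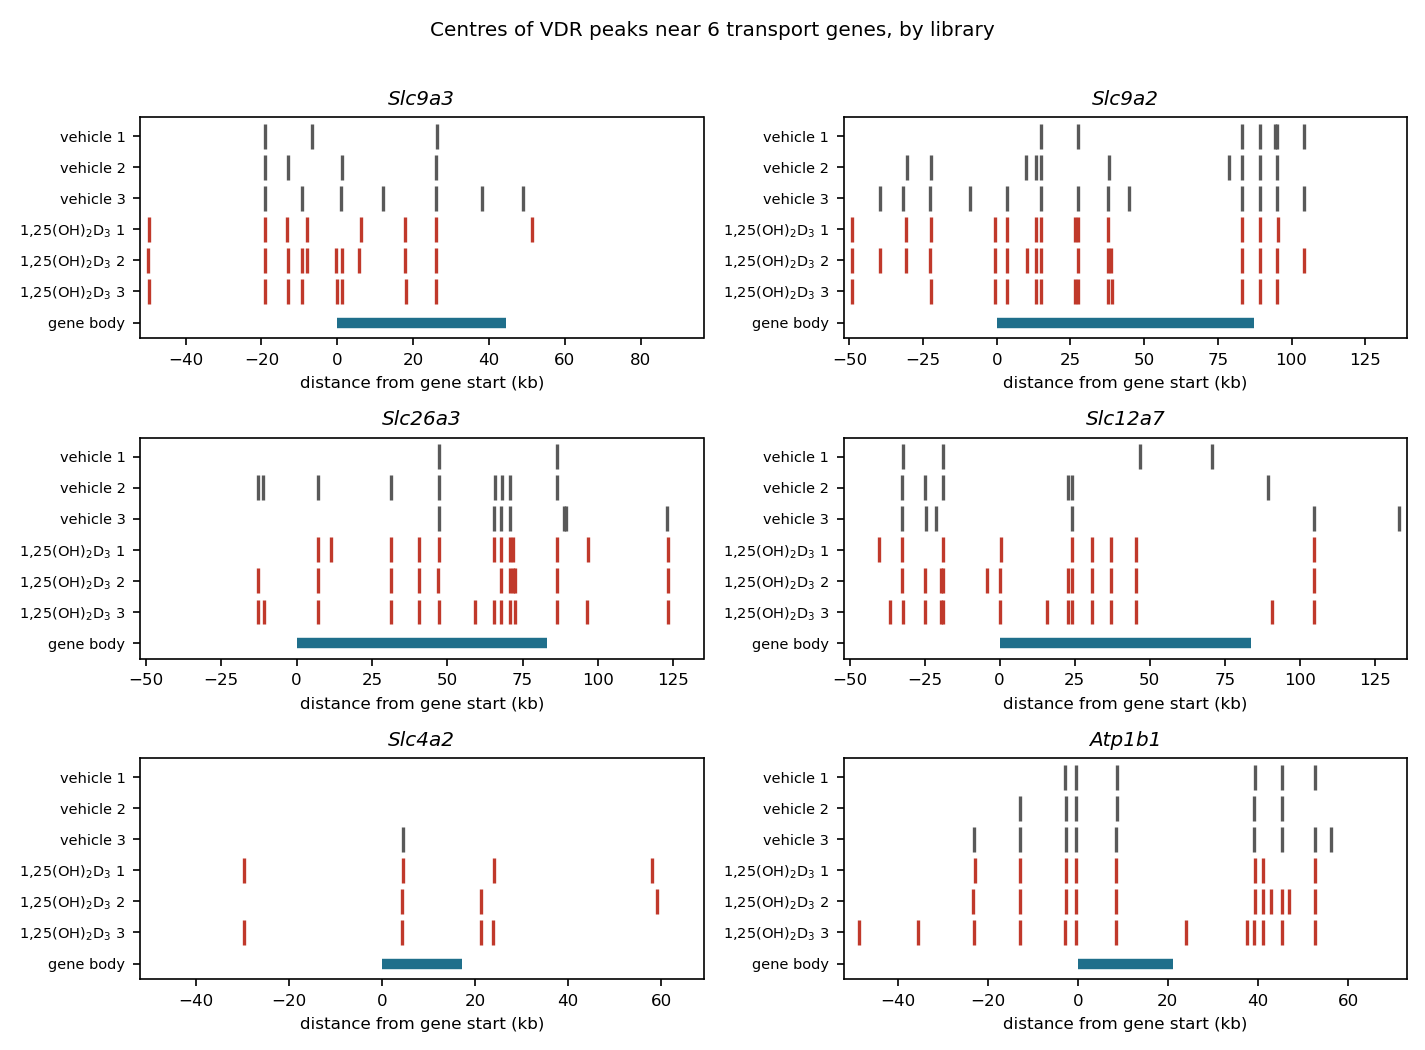
Peak centres (ticks) by library (rows, vehicle gray and hormone red) against distance from the gene start in kb, within 50 kb of 6 gene bodies (blue bars). Slc9a3, Slc26a3, Slc12a7 and Atp1b1 show ticks shared by all 6 libraries and others shared by the hormone libraries alone, while Slc4a2 has 1 vehicle peak in all.

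Of the anion exchangers, Slc26a3 and Slc26a2 had more peaks in each hormone library than in any vehicle library. Slc26a3 (chromosome 12, 32075736 to 32158782, plus strand), the apical chloride-bicarbonate exchanger whose loss causes congenital chloride diarrhea, had 2, 9 and 7 peaks with vehicle and 12, 11 and 14 with hormone. The mean difference was 6.33 peaks, the same as at Slc12a7 and the largest among the members. With lists of equal length Slc26a3 had 2, 7 and 4 with vehicle and 6, 5 and 5 with hormone, which overlap. Slc26a2 (chromosome 18, 61352573 to 61371266), a sulfate transporter, had 2, 3 and 5 with vehicle and 6, 10 and 9 with hormone. Slc26a8 (chromosome 17, 28774728 to 28826932), known from sperm, had 3, 4 and 6 with vehicle and 7, 8 and 13 with hormone, and Slc26a10 (chromosome 10, 126608449 to 126617701) 1, 4 and 4 with vehicle and 5, 8 and 8 with hormone. In each of the 4 genes the hormone values lay above the vehicle values in the full lists, and in none of them with lists of equal length. By mean, 8 of the 11 Slc26a genes were higher and 2 lower with hormone, and with lists of equal length 5 were higher and 3 lower.

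Of the 8 regions near Slc26a3 in all 3 hormone libraries, 5 were in introns. One region, centred 47.1 kb downstream of the outermost start and within 1 kb of another annotated start of the gene (chromosome 12, 32122626 to 32123105), was in all 6 libraries. An intronic region at 40.5 kb (32116082 to 32116455) was in the hormone libraries only. A further 6 regions were in all 3 hormone libraries and in 1 or 2 vehicle libraries, among them intronic regions at 68.0 kb (32143499 to 32143935) and 70.7 kb (32146305 to 32146656), both absent only from vehicle replicate 1. Downstream of the gene, 86.3 kb from its start, a region (32161902 to 32162262) with a DR3 of 1 mismatch was within 50 kb of both Slc26a3 and its neighbor Slc26a4. Slc26a4, pendrin of the inner ear and thyroid, had 2, 1 and 5 peaks with vehicle and 5, 4 and 5 with hormone.

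Slc26a6 (chromosome 9, 108756368 to 108764472), the other apical anion exchanger of the small intestine, had few peaks, 0, 4 and 1 with vehicle and 2, 3 and 4 with hormone. Vehicle replicate 2 equalled the highest hormone library. Its region at 1.48 kb, in an intron (108757620 to 108758077), was in all 3 hormone libraries and vehicle replicate 2, and a region over its start, centred at 196 bp (108756285 to 108756843), was in hormone replicates 2 and 3 and vehicle replicate 2. Slc26a1 (chromosome 5, 109098897 to 109104588), a basolateral sulfate transporter, had 2, 2 and 4 with vehicle and 4, 7 and 8 with hormone. Slc26a9, a chloride transporter of stomach and airway, had 0, 1 and 5 with vehicle and 2, 2 and 3 with hormone. Slc26a11 had 1, 1 and 5 with vehicle and 3, 2 and 2 with hormone. At Slc26a9 and Slc26a11 alike, vehicle replicate 3 was the highest library. Slc26a5, the motor protein of cochlear hair cells, had 0, 0 and 2 peaks with vehicle and 1, 0 and 0 with hormone, and Slc26a7 had 0, 0 and 2 with vehicle and 0, 0 and 1 with hormone.

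In the bicarbonate transporter family, Slc4a2 was nearly free of peaks with vehicle and Slc4a4 had many in every library. Slc4a2 (chromosome 5, 23929655 to 23946768), the basolateral anion exchanger, had 0, 0 and 1 peaks with vehicle and 4, 3 and 4 with hormone. Its groups did not overlap, but with lists of equal length it had 2 peaks in hormone replicate 1 and 0 elsewhere. In the full lists its single vehicle peak lay in a region 4.46 kb downstream of the outermost start, at another annotated start (23933913 to 23934313), that was also in every hormone library. The other regions within 50 kb of Slc4a2 were at starts of Abcb8, Fastk and Tmub1 or in Agap3, and none was hormone-only. With peaks given only to the nearest start, the mean difference at Slc4a2 was 0.67 peaks, against 3.33 within 50 kb. Slc4a4 (chromosome 5, 89315843 to 89668678), the electrogenic sodium-bicarbonate cotransporter, has a gene body of 353 kb and had the most peaks, 7, 7 and 17 with vehicle and 12, 11 and 23 with hormone. The groups overlapped, and the deep library was the highest in each. With lists of equal length the order at Slc4a4 was turned, with 7, 4 and 4 peaks with vehicle and 1, 3 and 3 with hormone. This was the 1 member at which every vehicle library then exceeded every hormone library, as at 1.85% of all genes.

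The regions of Slc4a4 spread over the whole gene. An intronic region 22.1 kb into the gene (chromosome 5, 89337694 to 89338118), found in all 6 libraries, had a mean list percentile of 21.5 and holds the perfect DR3 match printed above. An intronic region at 197 kb (89512514 to 89512894) was also in all 6 libraries, as was an intergenic one past the gene end at 391 kb (89706595 to 89706954), which holds a DR3 with 1 mismatch and is nearest to the start of Gc. Slc4a8 (chromosome 15, 100592178 to 100654399), a sodium-driven chloride-bicarbonate exchanger, had 2, 2 and 4 peaks with vehicle and 4, 6 and 8 with hormone. It had 2 intergenic regions shared by all 6 libraries, 30.4 kb (100561595 to 100561930) and 6.05 kb (100585964 to 100586289) upstream of the start. Both hold a DR3 that differs from the element at 1 position.

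Slc4a9 (chromosome 18, 36687805 to 36715909), known from kidney, had 1, 1 and 5 peaks with vehicle and 7, 9 and 7 with hormone, and 3 hormone-only regions. With lists of equal length it had 1, 0 and 1 with vehicle and 0 in each hormone library. Slc4a1 (chromosome 11, 102210138 to 102227517), the anion exchanger of red cells, had 1, 0 and 1 with vehicle and 2, 4 and 4 with hormone, and with lists of equal length 1, 0 and 0 in both groups. Slc4a7 (chromosome 14, 15535539 to 15632457), an electroneutral sodium-bicarbonate cotransporter, went the other way by mean, with 2, 2 and 8 peaks with vehicle and 1, 2 and 1 with hormone. Its 8 peaks in vehicle replicate 3 stood apart from the other libraries. Slc4a10, a neuronal transporter, had 1, 1 and 13 with vehicle and 1, 4 and 8 with hormone. Slc4a5 had 0, 2 and 5 with vehicle and 1, 2 and 5 with hormone, Slc4a11, known from the corneal endothelium, 0, 0 and 3 with vehicle and 1 in each hormone library, and the adaptor Slc4a1ap 1, 1 and 4 with vehicle and 3, 2 and 6 with hormone. Slc4a3, of heart and brain, had 0 peaks throughout. By mean, 7 of 11 Slc4a genes were higher and 2 lower with hormone, which became 3 higher and 5 lower with lists of equal length.

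All 9 cation-chloride cotransporter genes had a higher mean with hormone, but with lists of equal length 4 were higher and 4 lower. Slc12a7 (chromosome 13, 73870542 to 73954191), a potassium-chloride cotransporter, had 4, 6 and 6 peaks with vehicle and 9, 12 and 14 with hormone, without overlap. With lists of equal length it had 4 in each vehicle library and 4, 5 and 5 with hormone, which overlap. It also had 4 hormone-only regions, more than any other member. These were centred at 269 bp from its start (73870654 to 73870968), at 30.7 kb within 1 kb of another annotated start (73900985 to 73901506), and in introns at 37.1 and 45.4 kb. The closest DR3 had 3 mismatches in each of the 4. Its single region in all 6 libraries (73837910 to 73838336), 32.4 kb upstream, lies in the neutral amino acid transporter gene Slc6a19, within 1 kb of an annotated start.

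Slc12a3 (chromosome 8, 96853092 to 96890113), the thiazide-sensitive cotransporter of the kidney, had 3, 6 and 7 peaks with vehicle and 9, 10 and 9 with hormone. The groups did not overlap, but with lists of equal length they did, at 3, 6 and 3 with vehicle and 7, 5 and 5 with hormone. Intronic regions at 24.9 kb (96877849 to 96878180), 33.0 kb and 35.0 kb (96887879 to 96888246) were in all 6 libraries, the first at a mean list percentile of 99.5. Slc12a2 (chromosome 18, 58038332 to 58106475), which loads chloride at the basolateral membrane for secretion, had 2, 1 and 4 with vehicle and 3, 4 and 5 with hormone. A region in an exon, 67.8 kb downstream of the start (58105977 to 58106294), was in all 6 libraries. Slc12a8 (chromosome 16, 33517414 to 33664221) had 2, 3 and 13 with vehicle and 11, 10 and 10 with hormone, so that vehicle replicate 3 was the highest of the 6. It had 3 hormone-only regions, all intronic, at 12.3, 50.7 and 56.8 kb.

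The other Slc12a genes reported here were Slc12a4, Slc12a5, Slc12a9 and Slc12a1. Slc12a4 (chromosome 8, 108467490 to 108489974) had 0, 1 and 1 peaks with vehicle and 2, 1 and 1 with hormone. Its groups overlapped. The neuronal Slc12a5 had 0, 2 and 1 with vehicle and 2, 5 and 6 with hormone, Slc12a9 3, 7 and 4 with vehicle and 6, 5 and 9 with hormone, and Slc12a1, the cotransporter of the renal loop, 1, 1 and 5 with vehicle and 3, 3 and 2 with hormone. The perfect DR3 match listed with Slc12a1 lies in an intron of Dut, 100 kb from the Slc12a1 start, and Dut has the nearest start.

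Of the 8 sodium pump genes, 4 had a higher and 2 a lower mean with hormone and 2 were equal, which became 1 higher, 2 lower and 5 equal with lists of equal length. Atp1b1 (chromosome 1, 166367398 to 166388486, minus strand), the partner that brings the pump to the membrane, had 6, 6 and 9 peaks with vehicle and 8, 11 and 13 with hormone. Its groups overlapped at vehicle replicate 3, but with lists of equal length they did not, at 6, 6 and 7 with vehicle and 8, 10 and 9 with hormone.

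Atp1b1 shared with Slc9a2 the highest number of regions in all 6 libraries, 4. One lay over its promoter, centred 0.385 kb upstream of the start (chromosome 1, 166388703 to 166389039), one 2.71 kb upstream (166391036 to 166391356) at a mean list percentile of 99.0, one in an intron at 8.59 kb (166379717 to 166380074) and one 39.3 kb downstream (166349061 to 166349402). A hormone-only region 41.2 kb downstream (166347130 to 166347485) was also present. Atp1b2, known from glia, had 0, 0 and 1 peaks with vehicle and 3 in each hormone library, of which 1 region was hormone-only and had Sat2 as its nearest start. Of the 8 regions near Atp1b2 in any library, only that 1 was in at least 2 hormone libraries. With peaks given only to the nearest start, the mean difference at Atp1b2 was 0. With lists of equal length Atp1b2 had 1 peak in vehicle replicate 3 and 0 elsewhere. Atp1b3 had 0, 1 and 3 with vehicle and 0, 1 and 4 with hormone. Atp1a4, the catalytic subunit of sperm, had 0, 0 and 3 peaks with vehicle and 1, 0 and 1 with hormone. Atp1b4 had 0 in every library.

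Joined across libraries, the peaks within 50 kb of members formed 522 of 87029 regions, 13 of them near more than 1 member. Of the 522, 272 were in 1 library, 118 of these in vehicle replicate 3, and 222 were in at least 2 of 3 hormone libraries. At least 1 such region lay near 44 of 51 members (86.3%), compared with 70.2% of all protein-coding genes. There were 44 regions in all 3 hormone and no vehicle library, 8.43% of the 522 against 5.39% of all regions, a total that includes the many regions private to vehicle replicate 3. Among regions in at least 2 hormone libraries the share was 19.8% near members and 16.6% among all such regions, and 29 members (56.9%) had one, against 33.2% of all genes. In all 6 libraries there were 38 regions, 7.28% against 4.99% of all regions, or 17.1% against 15.4% among regions in at least 2 hormone libraries, near 23 members (45.1%), against 29.1% of all genes. No region near a member was in all 3 vehicle and no hormone library, a class that held 0.0299% of all regions. A region 29.5 kb downstream of the Slc26a2 start (chromosome 18, 61341645 to 61341937) was in vehicle replicates 1 and 2 and no hormone library. Near members, lists of equal length gave 12 hormone-only regions and 30 in all 6 libraries. The shares of these classes over all regions were not counted in that setting. Being within 50 kb does not assign a region to a member: a member had the nearest annotated gene start at 20 of the 44 hormone-only regions and 18 of the 38 in all 6.

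**Figure D4:**
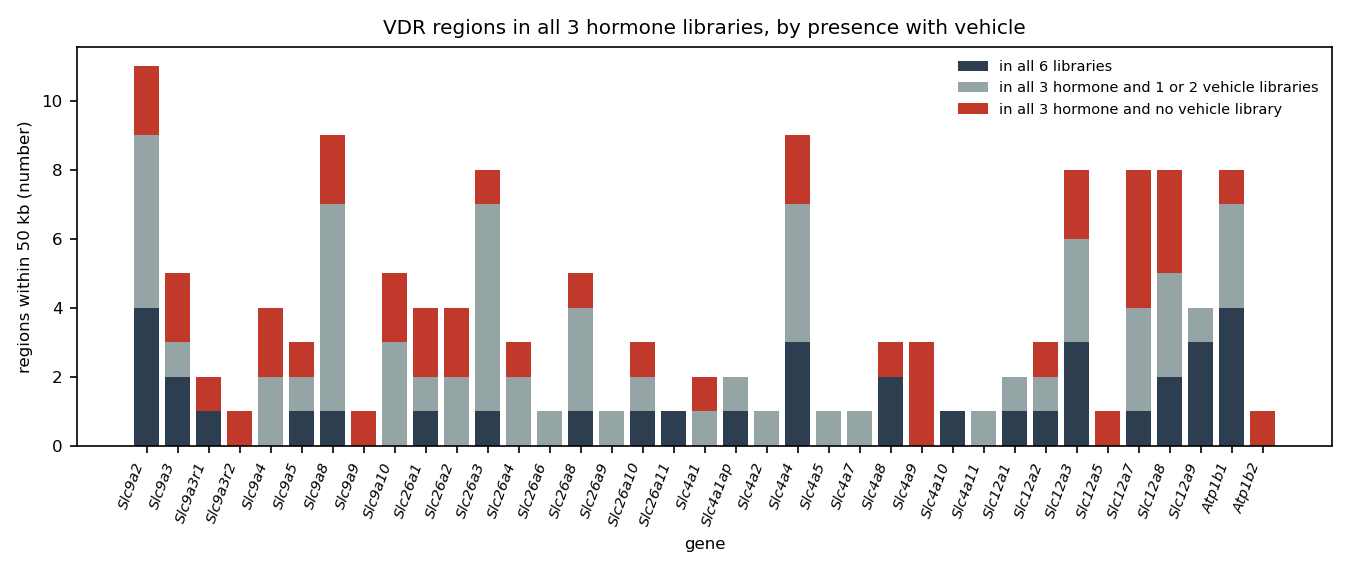
Number of regions within 50 kb (y axis) that were in all 3 hormone libraries, for 37 of the 41 members with at least 1, split by presence in the vehicle libraries. Slc9a2 has the tallest bar, Slc12a7 the largest hormone-only part with 4 regions, and Slc9a2 and Atp1b1 the most regions in all 6 libraries with 4 each.

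The regions in at least 2 hormone libraries lay mostly away from promoters. Of the 222, 39 (17.6%, 95% Wilson interval 13.1 to 23.1) were centred within 1 kb of an annotated start of any gene, against 15.2% of all 28190 such regions, 100 were in introns, 77 between genes and 6 in exons. Among the 44 hormone-only regions, 12 (27.3%, interval 16.3 to 41.8) were at starts, against 18.9% of all hormone-only regions. In all, 11 members had a region in at least 2 hormone libraries within 1 kb of a start of their own. Among them were Slc9a2, Slc9a3, Slc9a8, Slc9a10, Slc26a3, Slc26a6, Slc4a2, Slc4a1ap, Slc12a7 and Atp1b1. Hormone-only regions of this kind were at Slc9a2, Slc9a10 and Slc12a7 alone. The share of all protein-coding genes with a region at a start of their own was not counted.

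A DR3 element with at most 2 mismatches was within 100 bp of the centre of 131 of the 222 regions (59.0%, 95% Wilson interval 52.4 to 65.3), against 60.9% of all such regions and 36.5% of the windows 5 kb to their right. With at most 1 mismatch the shares were 17.6% near members and 18.7% over all regions, with 4.05% in the shifted windows, and 9 of the 222 regions held a perfect match. Near members, 12 of the 38 regions in all 6 libraries (31.6%, interval 19.1 to 47.5) and 6 of the 44 hormone-only regions (13.6%, interval 6.40 to 26.7) held an element with at most 1 mismatch. The intervals overlap, and over all regions of these classes the shares were 28.1% and 20.5%. In the windows 5 kb to the right, the share was 2.63% (interval 0.466 to 13.5) for the regions in all 6 libraries. For the hormone-only regions it was 9.09% (interval 3.59 to 21.2), an interval that overlaps that of the hormone-only regions themselves. The AP-1 site TGANTCA, searched on both strands, was in 11.7% of the 222 regions against 13.9% of all such regions, and the GATA site AGATAA in 17.1% against 21.6%. A fixed HNF4 site was in 3.60% against 2.74%, the CDX site TTTATNG in 10.8% against 13.6%, and a fixed HNF1 site in 0 of 222, which allows up to 1.70% by the Wilson interval, against 0.0958%. The 5 shares near members each have a Wilson interval that includes the share over all such regions.

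Other genes of salt and bicarbonate handling, 39 of 40 symbols found (all but Chp1), were counted the same way. By mean, 32 had more peaks with hormone (82.05%, against 63.6% of all genes), 3 had fewer (7.69%, against 20.4%) and 4 had equal numbers. The groups did not overlap at 8 (20.5%, against 16.0% of all genes). With lists of equal length 14 were higher and 14 lower, against 24.4% and 26.8% of all genes. Kcnq1, a basolateral potassium channel, had 2, 4 and 8 peaks with vehicle and 14 in each hormone library. Near it were 4 hormone-only regions and 1 region in all 3 vehicle and no hormone library. Scnn1a, a subunit of the epithelial sodium channel, had 3, 6 and 5 with vehicle and 8, 11 and 12 with hormone, whereas its partners Scnn1b and Scnn1g had 1 peak each, in vehicle replicate 3. Ezr, the ezrin gene, had 7, 9 and 10 with vehicle and 12, 14 and 13 with hormone. At Kcnq1, Scnn1a and Ezr the groups did not overlap in the full lists. Cftr, the apical chloride channel, had 4, 5 and 12 with vehicle and 9, 10 and 13 with hormone, and Sgk1, the kinase that acts on several of these transporters, 1, 1 and 9 with vehicle and 1, 5 and 5 with hormone. At both, vehicle replicate 3 lay within or above the hormone values.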

How the data were processed

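Members and lists were chosen with earlier results of these data known. The submitters' processing notes name Bowtie, HOMER and mm9, with versions not given in the sources used here. The file headers name HOMER and give separate, unpooled peak calling per library against an input, with a false discovery rate of 0.001 and a 4-fold excess of tags over both the input and the local 10 kb. One input library, labelled with the hormone dose, is listed and was not analysed here. The deposited score column is 1 for every peak and ranks nothing. The deposited BED starts count from 0 and were written from 1.

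Peaks off the autosomes, X and Y were left out (5 in all), and genes and sequences came from the annotation and genome of NCBI 37 (mm9, GENCODE mouse version 1). Peak centres within 50 kb of a gene body were counted in Python 3.11.15. Single values were compared by exact two-sided permutation with Benjamini-Hochberg adjustment over 22367 genes, and the counting was tested on simulated data. Intervals are 95% Wilson intervals and cover counting error only. Members named in full were those known from enterocyte membranes, those whose groups do not overlap and those with the largest differences. The values of 6 members are not reported here, and the counts over all 51 include them. Regions named by position were mainly hormone-only, in all 6 libraries or at a member's start, and their number was limited after their values were seen. Replicate numbers in the labels were checked for pairing. Across genes, the deviations of same-numbered libraries from their group means correlated at 0.407, 0.133 and 0.368 for replicates 1, 2 and 3. Those of differently numbered libraries correlated at -0.42 to 0.08, and replicate 2 stood only slightly above them. Deviations from a mean of 3 libraries cancel within a group, so these values are not an independent baseline for pairing. Same-numbered libraries were treated as pairs only where the replicate number was taken as a block. The permutation test and the calls of overlap between groups were unpaired. This pairing comes from the data and not from a stated design, and replicate 3 is the deep library in both groups.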

Additional observations from a re-analysis of the deposited data

How the results depend on the processing

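Peak heights are not in the files, so depth and list length limit every count. With lists of equal length 20 members were higher with hormone, against 24.4% of all genes. In that setting 29 members had a region in at least 2 hormone libraries, a class not counted there over all genes. The median difference per member was 0.33 peaks with a 10 kb window, 0.33 with peaks given only to the nearest start, and 0 with lists of equal length. Members with every hormone library above numbered 7 with 10 kb (9.82% of all genes), 6 with equal lists (4.03%), 4 by nearest start (7.74%) and 25 with the replicate block (33.2%). Under the block the count of members higher (38) and the median (2) could not change, because the mean of paired differences equals the difference of the means. The vehicle-above count was 0 under the block (0.156% of all genes), and the region counts and the DR3 share were not run. The vehicle-above count was 1 with equal lists (1.85% of all genes). Hormone-only regions numbered 23 with 10 kb and 12 with equal lists, regions in all 6 numbered 22 with 10 kb and 62 with 100 kb, and vehicle-only regions numbered 1 with equal lists. No share over all regions was counted beside these region numbers. Leaving out 1 library gave 12 to 34 members with hormone above. There were 34 without vehicle replicate 3 (42.3% of all genes) and 19 without hormone replicate 1 (25.6%). Members with vehicle above then numbered 0 to 1, with 1 without hormone replicate 2 (0.0671% of all genes). Leaving out 1 library also gave medians of 1.17 to 3.17 and 0 to 1 vehicle-only regions (1 without vehicle replicate 3). The DR3 share was 17.6% with at most 1 mismatch, 4.05% with 0 and 36.5% within 50 bp. Within 50 bp no share over all regions or over shifted windows was counted. With equal lists 13 of the 38 members with a positive difference had a negative one, among them Slc4a4 (-2.67) and, of those without overlap in the full lists, Atp1b2 (-0.33) and Slc4a9 (-0.67). The cause of these shifts was not tested. The 10 kb window and the lists of equal length hold fewer peaks by construction.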
